A study of Rattus norvegicus with 20 samples.

Results

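The arrays compared foetal rat testes after maternal dosing with MEHP, mono(2-ethylhexyl) phthalate, or with its parent diester DEHP, di(2-ethylhexyl) phthalate. The 4 arrays titled MEHP and the 4 titled DEHP were compared, 8 of the 20 arrays of the series. The difference was tested for 24067 genes. All 20 arrays set which genes were kept and the spread used in the tests. Pregnant Han Wistar dams were gavaged once a day on gestation days 12 to 19 with 500 mg/kg of MEHP or DEHP, and control dams received the corn oil vehicle. Both compounds were given at the same mass, which is not the same number of molecules, since the monoester is the smaller molecule. Each array held RNA pooled from the testes of at least 3 male pups of 1 litter (6 testes), with 4 arrays per group. The other 8 arrays belong to TOTM, tris(2-ethylhexyl) trimellitate, and to a compound labelled only EHO. Each group was hybridised and scanned on a slide of its own. Differences between groups therefore hold both compound and slide, which cannot be told apart.

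DEHP is a plasticiser that is cut at 1 of its ester bonds in the gut and tissues, which releases MEHP, and MEHP is regarded as the form that acts on the testis. In the foetal testis the Leydig cells make androgens from cholesterol. Scarb1 takes cholesterol up, Star carries it into mitochondria, Cyp11a1 cuts its side chain, and Hsd3b1 and Cyp17a1 carry the product on towards androgens, while Insl3 is the Leydig cell hormone that guides descent of the testis. Lower levels of these transcripts are the best known effect of phthalates on this tissue.

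The 2 compounds form 1 pair, compared at 1 dose and 1 age. Levels are log2 signals from which the array's own 75th percentile was subtracted, and differences are MEHP minus DEHP on the log2 scale with their standard error (SE) from limma. A gene was called at a Benjamini-Hochberg adjusted p under 0.05, and "rose" and "fell" are used only of such genes. The p-values and SE rest on the spread between litter pools within all 5 groups of the series, not within MEHP and DEHP alone. For a single gene the 2 can differ. Sox9, for example, had an SE of 0.40 with SDs of 0.21 (MEHP) and 0.13 (DEHP). In bulk tissue fewer cells of a type and less RNA per cell cannot be told apart.

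The 4 MEHP arrays did not form 1 cluster. The difference between 2 arrays was expressed as a ratio to the noise between repeated spots of the same probe, over the 17495 single-spot probes that were well above background throughout the 20 arrays. MEHP arrays 1 and 2 differed by 0.783 times that noise. On that value the pair was averaged to 1 sample, and the tests rest on n = 3 for MEHP and n = 4 for DEHP. Over the probes above background on the 8 arrays, the set first planned, the pair stood at 1.30 times the noise. That value is above the noise and would not have led to the averaging. With the 2 arrays kept as separate samples 359 genes were called, against 280 with the pair averaged. The 6 pairs of DEHP arrays lay at 2.07 to 2.91 times the noise. The other 5 pairs of MEHP arrays lay at 2.10 to 4.75 times, so some MEHP arrays were less alike than any 2 DEHP arrays. MEHP 3 was closest to a corn oil array, control 2, at 1.29 times the noise, and stood at 3.25 to 5.18 times from the 4 DEHP arrays. MEHP 4 was closest to DEHP 3, at 1.37 times. Both values lie below every pair of arrays within the control, DEHP or MEHP group other than MEHP 1 and 2, the lowest of which is 2.02. This is not particular to these pairs, since control 3 also lay below 2.02 from DEHP 3 (1.64), DEHP 4 (1.65) and MEHP 4 (1.94). Over the probes above background on the 8 arrays, control 3 and DEHP 3 stood at 1.73 and MEHP 4 and DEHP 3 at 1.77. Whether each array holds the RNA that its title names was not tested, so MEHP 1 to 4 below means the arrays of those titles, and every MEHP mean, n and difference carries this limit. Single arrays are therefore given below, together with values without the arrays that stand apart.

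**Figure D1:**
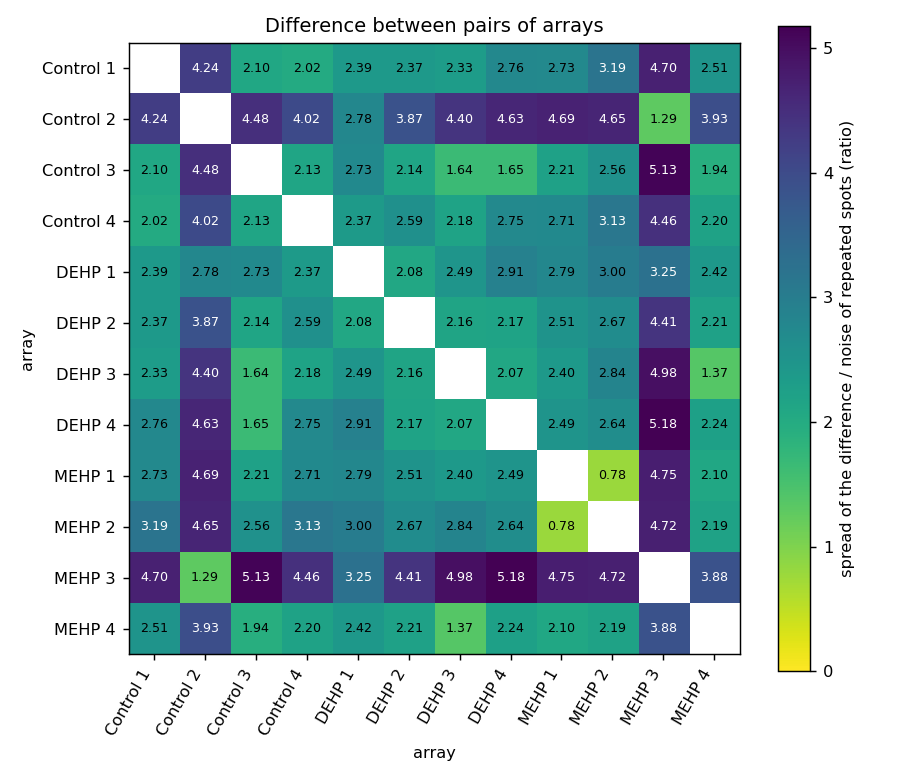
The heat map gives, for each pair of the 12 corn oil, DEHP and MEHP arrays, the spread of the log2 difference over 17495 probes as a ratio to the noise of repeated spots, with darker squares for larger differences. MEHP 1 and 2 (0.783), MEHP 3 and control 2 (1.29) and MEHP 4 and DEHP 3 (1.37) are the palest squares.

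On single arrays the counts of genes at least 2-fold from the DEHP mean differed in the same way. Of 21837 genes well above background on all 8 arrays, 149 were higher (0.682%) and 48 lower (0.22%) on MEHP 1, and 177 were higher (0.811%) and 55 lower (0.252%) on MEHP 2. MEHP 3 had 331 higher (1.52%) and 365 lower (1.67%). MEHP 4 had 132 higher (0.604%) and 10 lower (0.0458%). As a background, each DEHP array set against the mean of the other 3 had 16 to 40 genes higher (0.0733% to 0.183%) and 12 to 46 lower (0.055% to 0.211%). MEHP 4 had 10 genes 2-fold lower and DEHP 3 had 12, but the references differ, since the mean for MEHP 4 includes DEHP 3. The corn oil arrays, against the same DEHP mean, had 0.224% to 1.24% of genes higher and 0.028% to 0.895% lower. MEHP 3 had more in both directions than any of the other arrays named here.

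Many Leydig cell genes differed widely between the MEHP arrays. The 250 bases before the annotated start of Cyp11a1, Insl3, Hsd3b1 and Fdx1 are shown because these genes were low together on MEHP 1 and 2. They come from RefSeq's GRCr8 assembly, at chr8:67318415-67318664 (plus strand), chr16:18432939-18433188 (plus strand), chr2:188864695-188864944 (minus strand) and chr8:61183646-61183895 (minus strand), written 5′ to 3′ on the strand of the gene. Capitals mark AGGTCA or its reverse complement TGACCT, the half-site read by many nuclear receptors, Nr5a1 among them.
Cyp11a1: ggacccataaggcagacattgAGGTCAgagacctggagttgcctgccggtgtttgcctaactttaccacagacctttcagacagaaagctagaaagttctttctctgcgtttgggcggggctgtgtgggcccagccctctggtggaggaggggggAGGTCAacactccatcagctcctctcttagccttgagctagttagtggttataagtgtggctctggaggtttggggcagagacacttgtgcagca
Insl3: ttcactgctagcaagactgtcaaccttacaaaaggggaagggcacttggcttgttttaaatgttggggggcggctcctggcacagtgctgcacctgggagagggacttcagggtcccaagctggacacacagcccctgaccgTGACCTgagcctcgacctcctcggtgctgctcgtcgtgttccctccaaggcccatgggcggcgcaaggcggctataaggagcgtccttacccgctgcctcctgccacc
Hsd3b1: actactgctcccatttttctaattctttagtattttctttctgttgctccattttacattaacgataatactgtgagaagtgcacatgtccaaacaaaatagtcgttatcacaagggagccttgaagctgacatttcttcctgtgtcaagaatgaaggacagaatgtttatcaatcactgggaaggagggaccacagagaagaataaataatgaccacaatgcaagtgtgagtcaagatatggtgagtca
Fdx1: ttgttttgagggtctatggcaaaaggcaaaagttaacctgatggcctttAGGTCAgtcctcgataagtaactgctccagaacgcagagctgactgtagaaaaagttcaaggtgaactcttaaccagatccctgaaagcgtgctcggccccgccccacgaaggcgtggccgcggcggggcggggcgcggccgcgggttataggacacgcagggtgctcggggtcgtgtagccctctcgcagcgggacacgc
The motif, searched on both strands, occurred in 14.1% of 33469 promoter windows of this length. Cyp11a1 held it 229 and 95 bases before the start, Insl3 held it 108 bases before the start on the other strand, Fdx1 held it 201 bases before the start, and the Hsd3b1 window held none. The longer form AAGGTCA, which contains AGGTCA, was found in 3.99% of all windows and in none of these 4. Windows for Star, Scarb1 and Cyp17a1 were not analysed here.

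Star read 2.06, 2.22, 1.71 and 1.25 on the DEHP arrays and −0.06, 0.02, 3.26 and 1.77 on MEHP arrays 1 to 4. In control it read 3.36, 3.34, 3.78 and 3.19. MEHP 1 and 2 were below every DEHP array, MEHP 4 lay among them, and MEHP 3 lay above them and within the control range. The difference between the compounds was −0.14 ± 0.50 (95% interval −1.19 to 0.92, limma adjusted p = 0.999918), so a fall or a rise of up to about that size could have been missed. Against corn oil the difference of Star was −1.61 ± 0.46 for DEHP and −1.75 ± 0.50 for MEHP, 2 comparisons that share the same control arrays.

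Scarb1 followed the same order. It read 3.97, 4.19, 4.01 and 3.54 on the DEHP arrays and 2.58, 2.73, 5.93 and 4.23 on the MEHP arrays, against 5.13 to 5.80 in control. MEHP 3 was higher than any control array here. The difference was 0.34 ± 0.48 (95% interval −0.67 to 1.36), and another probe of Scarb1 gave −0.20 ± 0.26, so the 2 probes disagree in sign and neither was called.

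Cyp11a1 read 2.52, 2.87, 3.11 and 2.68 with DEHP and 1.13, 1.23, 3.46 and 2.95 with MEHP, against 3.42 to 4.09 in control. Its difference was −0.27 ± 0.37 (95% interval −1.05 to 0.52). Hsd3b1 read 4.84, 4.76, 5.02 and 4.63 with DEHP and 3.22, 3.22, 5.51 and 4.94 with MEHP. In both genes MEHP 1 and 2 were the lowest of the 8 arrays and MEHP 3 the highest. The difference of Hsd3b1 was −0.26 ± 0.36 (95% interval −1.01 to 0.50). Fdx1, the ferredoxin that hands electrons to Cyp11a1, read 4.68, 4.93, 4.46 and 4.02 with DEHP and 3.30, 3.43, 5.86 and 4.50 with MEHP, a difference of 0.05 ± 0.41.

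Cyp17a1 read 5.84, 6.35, 5.66 and 5.08 with DEHP and 4.16, 4.21, 6.50 and 5.68 with MEHP, a difference of −0.27 ± 0.42, and its spot was set aside on all control arrays. Insl3 read 5.30, 5.23, 5.60 and 4.86 with DEHP and 3.49, 3.57, 6.00 and 5.60 with MEHP, a difference of −0.20 ± 0.40. Again MEHP 1 and 2 were the lowest of the 8 arrays and MEHP 3 the highest. Lhcgr, the luteinising hormone receptor, read −2.75, −2.68, −2.93 and −3.27 with DEHP and −3.88, −3.59, −1.75 and −2.86 with MEHP, and was well above background on 2 arrays of each compound. MEHP 3 was again the highest array, and MEHP 1 and 2 the lowest. Its difference was 0.12 ± 0.32, and it turned to −0.39 ± 0.25 without MEHP 3 and to −0.83 ± 0.27 without MEHP 3 and 4, with no call.

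**Figure D2:**
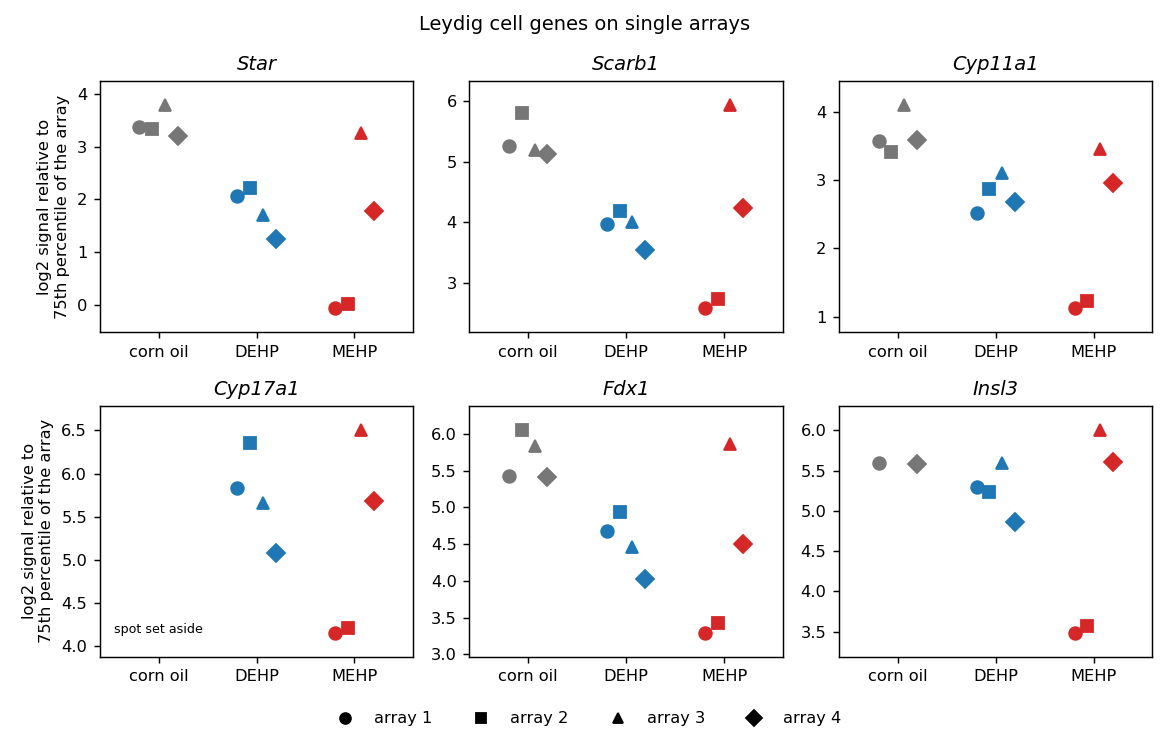
Each panel plots 1 gene, with the log2 level (75th percentile subtracted) on the vertical axis and corn oil, DEHP and MEHP side by side. The symbol gives the array number, and no bars are drawn. For Star, MEHP arrays 1 and 2 sit at −0.06 and 0.02, below the DEHP arrays (1.25 to 2.22), and MEHP 3 sits at 3.26, beside the control arrays.

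Nr5a1, the nuclear receptor that drives the steroid enzymes, did not follow that order. It read −1.61, −1.23, −1.32 and −1.08 with DEHP and −1.59, −1.64, −2.34 and −1.48 with MEHP, a difference of −0.50 ± 0.26 (95% interval −1.05 to 0.04). MEHP 3, which was the highest array for the enzymes, was the lowest for Nr5a1, and control 2, the array most like it, read −2.21. Por, which passes electrons to the cytochrome P450 enzymes, likewise read 1.81 on MEHP 3 and 1.97 on control 2, against 2.28 to 2.84 on the other arrays of DEHP and MEHP.

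Of the 13 measured genes of the steroidogenesis list none was called, against a background of 1.16% of all genes. At that share a list of this length, like those below, will mostly hold no call, so a count of 0 says little about its members. Their median difference was −0.16, beside −0.04 over all genes. Below 0 lay 10 of the 13, beside 13682 of all 24067 genes. By array the median of the list relative to the DEHP mean was −0.98 on MEHP 1, −0.75 on MEHP 2, 0.66 on MEHP 3 and 0.02 on MEHP 4, and 0.28 to 0.55 on the control arrays. Of the 12 members above background on all 8 arrays, 6 were at least 2-fold below the DEHP mean on MEHP 1, and the same 6 on MEHP 2, namely Star, Scarb1, Cyp11a1, Cyp17a1, Fdx1 and Hsd3b1. On MEHP 3, Fdx1, Scarb1 and Star were at least 2-fold above it and Nr5a1 at least 2-fold below it, and on MEHP 4 no member was 2-fold away.

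The comparison therefore turns on which MEHP arrays are read. With MEHP 3 and 4 left out, MEHP is 1 sample that is assumed to vary like the other groups. Insl3 was then called lower at −1.72 ± 0.21 (limma adjusted p = 0.00953), Hsd3b1 at −1.59 ± 0.26 (adjusted p = 0.0192) and Cyp11a1 at −1.62 ± 0.30 (adjusted p = 0.0343), while Star stood at −1.83 ± 0.38 (adjusted p = 0.0639). With MEHP 1 and 2 left out the same differences were 0.56 ± 0.17 for Insl3, 0.41 ± 0.22 for Hsd3b1, 0.41 ± 0.24 for Cyp11a1 and 0.71 ± 0.37 for Star, and none was called. Leaving out MEHP 3 alone moved Star to −0.93 ± 0.40, Scarb1 to −0.48 ± 0.34 and Fdx1 to −0.59 ± 0.33, with no call.

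The authors' deposited table gives signed folds with p-values of selected probes for either compound against control, and how its arrays were combined is not given in the sources used here. It holds 1004 probes for DEHP, 503 higher and 501 lower, and 3827 for MEHP, 2186 higher and 1641 lower. In the authors' deposited table the signed fold of Star is −2.75 for DEHP and −9.9 for MEHP, that of Scarb1 −2.70 and −6.6, and that of Cyp11a1 −1.68 and −5.1. The table's MEHP folds thus exceed its DEHP folds for each of these genes. Over 3653 MEHP probes of the authors' deposited table, the median gap between its log2 fold and the fold of a single array against the control mean was 0.111 for MEHP 1, 0.0957 for MEHP 2, 0.557 for MEHP 3 and 0.334 for MEHP 4. For DEHP the gap over 787 probes of the authors' deposited table was 0.120, 0.123, 0.125 and 0.154 for arrays 1 to 4, and 0.119 for their mean. The DEHP folds lay about equally near to each DEHP array, and the MEHP folds lay near to MEHP 1 and 2.

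Genes that make and take up cholesterol, the substrate of androgen synthesis, gave no call between the compounds. None of 23 measured members was called, against 1.16% of all genes, and the median difference was −0.03. Tm7sf2, a sterol reductase, read 1.51, 1.68, 1.26 and 0.59 with DEHP and 0.96, 1.03, 2.72 and 1.28 with MEHP, against 2.98 to 3.21 in control. All 8 arrays were below every control array. Its difference between the compounds was 0.41 ± 0.33 (95% interval −0.29 to 1.10), and against corn oil it stood at −1.80 with DEHP and −1.39 with MEHP. Insig1, a sterol sensor, was at 0.23 ± 0.30 and Cyp51, which demethylates lanosterol, at 0.13 ± 0.26. Without MEHP 3 all 3 signs turned, to −0.12 for Tm7sf2, −0.26 for Insig1 and −0.27 for Cyp51, with no call. On MEHP 3, Insig1 and Tm7sf2 were at least 2-fold above the DEHP mean, and by array the list's median was −0.28, −0.21, 0.17 and −0.15 on MEHP 1 to 4, against 0.39 to 0.69 on the control arrays.

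Scd, which desaturates fatty acids, read −2.28, −1.83, −2.05 and −2.37 with DEHP and −2.09, −2.27, −1.42 and −2.52 with MEHP, against −0.99 to −0.70 in control. All 8 arrays lay below the control arrays, and the compounds overlapped (0.09 ± 0.20). None of 11 fatty acid synthesis genes was called, against 1.16% of all genes. Srebf1 was at 0.27 ± 0.38 (another probe gave −0.29 ± 0.30) and Fads2 at −0.17 ± 0.15. MEHP is known to activate the nuclear receptors PPAR alpha and gamma. Of 21 measured genes of fatty acid oxidation and PPAR alpha targets none was called, against the same 1.16%, and their median was −0.03. Angptl4, a secreted lipase inhibitor and PPAR target, read 1.13, 0.93, 1.52 and 1.74 with DEHP and 0.23, 0.27, 0.92 and 1.54 with MEHP (−0.42 ± 0.25), so it was low on MEHP 1 and 2. Ppara itself was at −0.36 ± 0.44 and Cpt2, an enzyme of fatty acid import into mitochondria, at −0.23 ± 0.12.

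The enzymes that cut esters bear directly on a diester and its monoester. Of 27 genes listed for ester hydrolysis and glucuronidation 12 were measured in foetal testis. None was called, against 1.16% of all genes, and their median was 0.03. Ces1e, a carboxylesterase, read −1.46, −1.57, −1.58 and −1.71 with DEHP and −1.60, −1.55, −1.38 and −1.42 with MEHP (0.12 ± 0.19), so the compounds overlapped. Ces1dl1, a related gene, read −1.86, −2.0, −1.74 and −2.19 with DEHP and −2.17, −2.99, −3.10 and −2.61 with MEHP. It was well above background on only 2 MEHP arrays and differed by −0.82 ± 0.46 (95% interval −1.78 to 0.15). In a fit of the DEHP and MEHP arrays alone it was called (limma adjusted p = 0.0422).

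Markers of the other cells of the testis were measured on every array. Amh, the Sertoli cell hormone, read 5.87 to 6.13 with DEHP and 6.05, 6.15, 5.28 and 6.09 with MEHP (−0.17 ± 0.19). Ddx4, a germ cell helicase, read 2.20 to 2.85 with DEHP and 2.34 to 2.79 with MEHP (−0.04 ± 0.17). Both were well above background on all 8 arrays, as the label of the tissue says. None of 21 Sertoli genes, 16 gonocyte genes, 16 peritubular and interstitial genes, 12 endothelial genes, 14 macrophage and leukocyte genes and 9 erythroid genes was called. The share called over all genes was 1.16%.

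The median differences of these lists were 0.03 for Sertoli, −0.21 for gonocyte, 0.11 for peritubular and interstitial, −0.07 for endothelial, 0.04 for macrophage and leukocyte and 0.15 for erythroid genes. Gonocyte genes had the lowest of these medians, with 12 of 16 below 0, beside 13682 of all 24067 genes. Elavl2 was at −0.51 ± 0.27 and Tex101 at −0.49 ± 0.21 (limma adjusted p = 0.772). By array the gonocyte median was 0.06, 0.07, −0.36 and −0.22 on MEHP 1 to 4, so it was low on MEHP 3 and 4, and without DEHP 2 it was −0.09. Sox9, a Sertoli cell factor, was at −0.40 ± 0.40. Nr2f2, a factor of interstitial cells, read 2.09 to 2.24 with DEHP and 2.31 to 2.67 with MEHP. Its arrays did not overlap, but 5.16% of all genes were likewise higher on all MEHP arrays and 4.1% lower, and Nr2f2 was not called (0.29 ± 0.20).

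Levels of erythroid transcripts differed between the arrays of each compound, and blood content itself was not measured. The erythroid median ran from −0.92 on DEHP 1 to 0.75 on DEHP 3, and read −0.67, −0.68, 0.33 and 0.68 on MEHP 1 to 4. Hbb, a globin chain, read 1.47, 2.92, 3.39 and 2.49 with DEHP and 2.25, 2.29, 2.85 and 3.46 with MEHP. The median of the adrenal cortex list (5 genes measured) was −0.26, −0.65, 0.54 and −0.05 on MEHP 1 to 4, and its member Mrap, an accessory protein of melanocortin receptors, read −0.12, 0.00, 2.50 and 1.02 there. Cyp11b1, the last enzyme of glucocorticoid synthesis, read −3.56, −3.01, 0.49 and −1.97 there. These 2 members had the order of the Leydig cell genes across the MEHP arrays, while Akr1b7 (−1.70, −2.08, −2.04 and −1.58), Cyp11b2 and Cyp11b3 did not, so the median of the list rests on different members on different arrays. The part of adrenal tissue in the Leydig cell values was not tested.

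**Figure D3:**
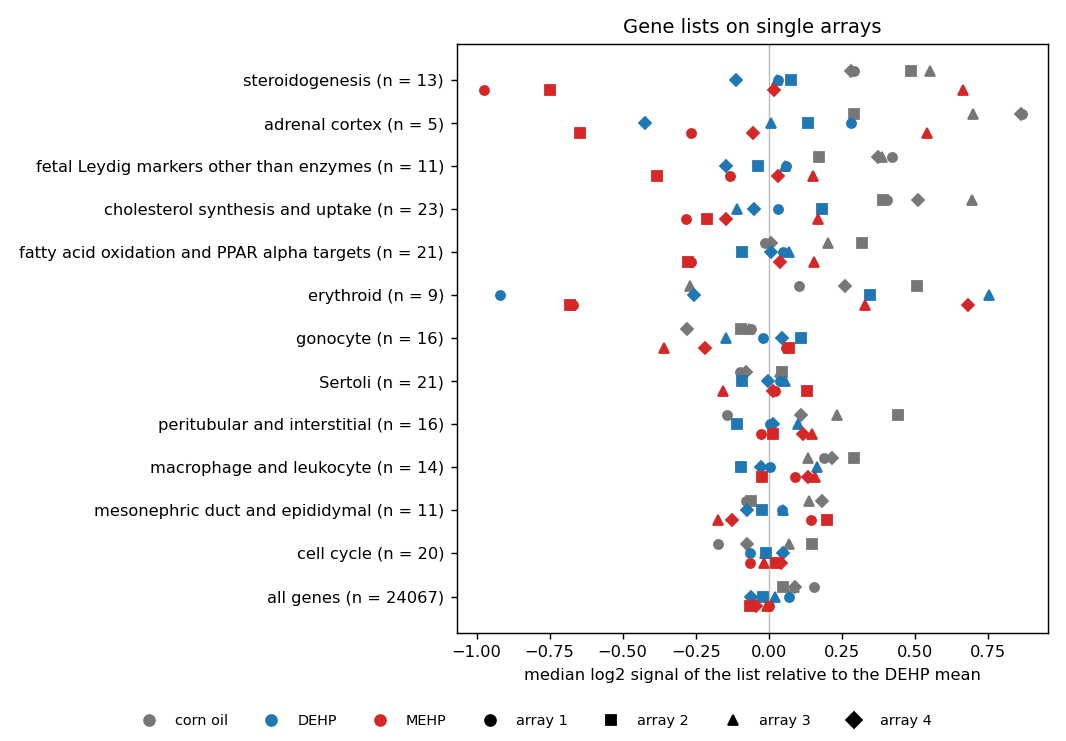
Each row is 1 gene list, and each point is its median log2 signal on 1 array relative to the DEHP mean, with colours for corn oil, DEHP and MEHP and symbols for the array number. The steroidogenesis row runs from −0.98 on MEHP 1 to 0.66 on MEHP 3, and the row of all genes lies between −0.06 and 0.16.

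The genes called between the compounds were almost all higher with MEHP. Of 24067 genes 280 were called (1.16%), 278 rose with MEHP (1.16%) and 2, Rdh11 and the expressed sequence tag AW251849, fell (0.00831%). An unadjusted p under 0.05 was found for 1322 of the 24067, where chance alone gives about 1 in 20 genes. On none of the 280 did the DEHP and MEHP arrays overlap, and 110 of them differed at least 2-fold. Lack of overlap was not one-sided, since over all genes 1242 (5.16%) were higher on every MEHP array and 987 (4.1%) were lower. Most were measured on both sides, since 255 were well above background on all 8 arrays, and 14 were not well above background on any DEHP array. Without MEHP 3 the count was 176, without MEHP 4 it was 164, and with arrays centred on the median in place of the 75th percentile it was 51. A fit of the DEHP and MEHP arrays alone called 370 genes, 314 higher and 56 lower, and 3288 genes had an unadjusted p under 0.05 in it.

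Relative to the DEHP mean, the 278 genes had a median of 0.776, 0.869, 1.01 and 0.875 on MEHP 1 to 4. That these medians lie together follows from how the genes were chosen. The same genes, chosen on the MEHP and DEHP arrays, had medians of 0.128 to 0.180 on the control arrays and −0.00429 to 0.218 on the TOTM arrays. On the EHO arrays, which lay on another slide, they had medians of 0.537 to 0.679, above every control and TOTM array. The share of spots above background was 66.0% to 73.9% on the MEHP arrays, 69.6% to 73.5% on the DEHP arrays and 46.1% to 63.5% on the EHO arrays, and the part of slide or signal in these values was not tested.

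**Figure D4:**
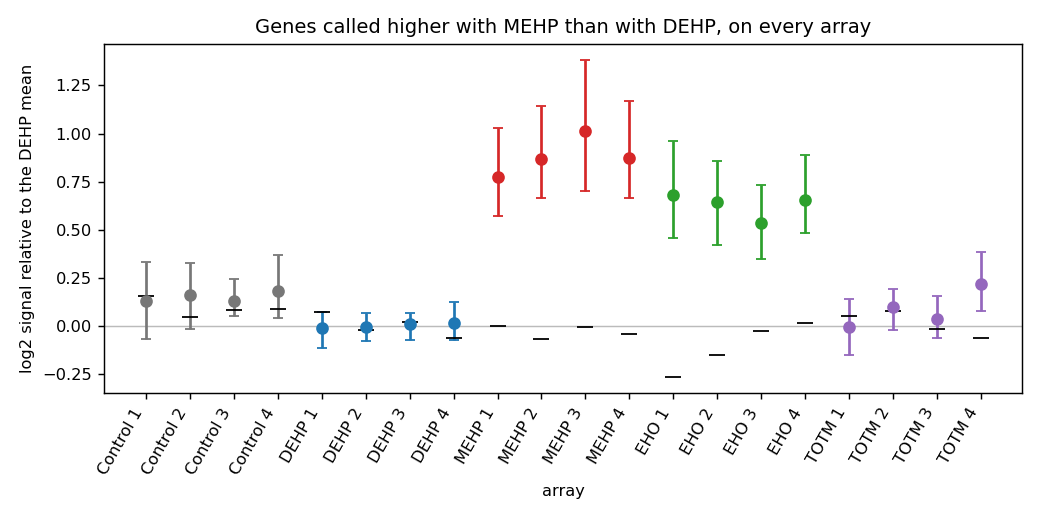
Points give the median and bars the quartiles of the log2 signal, relative to the DEHP mean, of the 278 genes called higher with MEHP on each of the 20 arrays, and dashes give the median of all genes. The MEHP arrays lie at 0.776 to 1.01 and the EHO arrays at 0.537 to 0.679, while the control and TOTM arrays lie at or below 0.218.

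The called genes were mostly not established protein-coding genes. Of the 280, 213 carried names that RefSeq does not list as protein coding. Among 13199 genes that RefSeq lists as protein coding 0.508% were called, against 9.12% of 307 RefSeq pseudogenes, 4.53% of 1060 predicted genes whose names RefSeq no longer holds and 3.73% of 991 known only as an Ensembl transcript. Probes known only from expressed sequence tags were called in 0.379% of 6852 cases. Of 474 genes whose description names a ribosomal protein 60 were called (12.7%), whereas none of 20 listed cytosolic ribosomal protein genes was called and their median was 0.02. These classes were drawn up after the calls were known and carry no test.

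**Figure D5:**
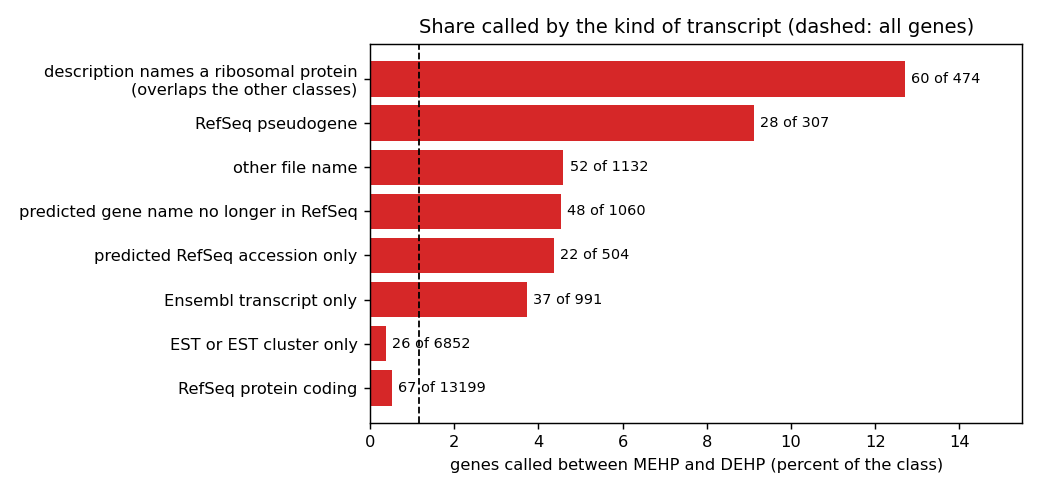
Bars give the percent of genes called between MEHP and DEHP in each class of transcript, with the counts beside them, and the dashed line marks all genes (1.16%). RefSeq pseudogenes (9.12%) and genes described as ribosomal proteins (12.7%) lie above the line and RefSeq protein-coding genes (0.508%) below it.

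Pseudogenes can be set beside the genes they were copied from. Of the called genes 28 are RefSeq pseudogenes with a symbol that names their parent, and the parent gene of 23 of them was measured. The 23 pseudogenes had a median difference of 0.91 and their parents a median of −0.02, from −0.26 to 0.46, and 0 of the parents was called. The pseudogenes entered this comparison because they were called, and over all 307 RefSeq pseudogenes the median difference was 0.0015. Rpl11-ps10, a copy of a ribosomal protein gene, read −0.09, −0.06, 0.00 and 0.10 with DEHP and 1.35, 1.42, 2.13 and 1.67 with MEHP, so the arrays lay far apart. It rose by 1.74 ± 0.17 (limma adjusted p = 2.5e-05), while Rpl11 itself differed by −0.02 ± 0.15. Hsp90ab1-ps5, a copy of a chaperone gene, read 2.04, 2.03, 1.88 and 2.06 with DEHP and 3.19, 3.34, 3.58 and 3.12 with MEHP. It rose by 1.32 ± 0.13 (adjusted p = 2.22e-05), and Hsp90ab1 differed by 0.02 ± 0.17. Rpl29-ps23 and Rpl23a-ps6 rose by 2.01 ± 0.39 and 1.88 ± 0.26, and the first was no longer called without MEHP 3 (adjusted p = 0.106) or without MEHP 4 (adjusted p = 0.0632). Probes for near-identical copies can bind the transcripts of their parents, so the level of each copy is uncertain.

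Among protein-coding genes 66 rose and 1 fell. Gtse1, a protein of the dividing cell's spindle, was not well above background on any DEHP array and read −2.23, −2.33, −1.54 and −2.01 with MEHP, at least 2.39-fold higher. These bounds set the MEHP mean against the lowest signal that counts as above background on each DEHP array, or the probe's own signal where that is higher. On the same terms Hint3 was at least 2.53-fold higher, Dhx16, an RNA helicase, at least 2.24-fold and Ergic2, a protein of the secretory pathway, at least 1.78-fold. The olfactory receptor genes Or12e9 and Or7g21 were at least 1.64-fold and 1.56-fold higher, and Lrch2 at least 1.37-fold. Of the corn oil, DEHP and MEHP groups, only MEHP had these genes, from Gtse1 to Lrch2, above background on all its arrays. Of those groups only MEHP, where they are high, could thus pass them through the filter. Their calls rest on DEHP signals not well above background and give no separate support. The calls of Lrch2, Or7g21 and Dhx16 were lost without MEHP 3 (adjusted p = 0.216, 0.218 and 0.147) and without MEHP 4 (adjusted p = 0.122, 0.112 and 0.0524). They were also lost without some single DEHP arrays, namely DEHP 2, 3 or 4 for Lrch2, any of the 4 for Or7g21, and DEHP 1 or 3 for Dhx16, with adjusted p from 0.0502 to 0.164. Rpl37al2, a copy of a ribosomal protein gene, rose by 1.85 ± 0.40 and was not called without MEHP 3 (adjusted p = 0.123), MEHP 4 (0.129), DEHP 1 (0.0945) or DEHP 2 (0.0829).

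Actc1, the cardiac form of actin, is the called gene with the clearest known role among the lists. Its probe maps to chromosome 3, bases 99901912 to 99901971 of rn4. It read −0.49, −0.13, −0.17 and 0.13 with DEHP and 0.91, 1.05, 0.66 and 1.12 with MEHP, against −0.23 to 0.18 in control. Every MEHP array was above every DEHP and control array, and Actc1 rose by 1.09 ± 0.18 (95% interval 0.71 to 1.46, limma adjusted p = 0.00268). The call was lost with median centring (limma adjusted p = 0.186) and without MEHP 4 and DEHP 3 together (0.0746). Without MEHP 3 and 4, which leaves 1 MEHP sample, the difference was 1.14. Another probe of Actc1 did not pass the background filter. It was the 1 call among 14 contractile and muscle genes, whose median was −0.10. Myh6 and Myh7, the cardiac myosin heavy chains, were at least 2-fold below the DEHP mean on MEHP 1 and 2, at 3.48 and 3.70 for Myh6 against 4.69 to 5.49 with DEHP, and so did not share the order of Actc1.

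Pax2, a factor of the mesonephric duct that lies against the testis, read −1.19, −1.24, −1.18 and −1.38 with DEHP and −0.53, −0.55, −0.65 and −0.76 with MEHP, against −1.31 to −1.01 in control. It rose by 0.60 ± 0.13 (limma adjusted p = 0.0291). It was the 1 call among 11 genes of the mesonephric duct and epididymis, whose median was −0.05, with Cdh1 at 0.72 ± 0.49 and Emx2 at 0.41 ± 0.28 (another probe gave −0.03 ± 0.30). The call was lost without any single DEHP array (adjusted p = 0.0630 to 0.110), without MEHP 3 (0.118) and without MEHP 4 (0.0694). Median centring (limma adjusted p = 0.496) and no filter (0.0563) also lost it. So did a 75th percentile over probes above background on all 20 arrays (0.271).

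Rdh11, which reduces retinal, was the 1 protein-coding gene that fell. It read −1.23, −1.33, −1.30 and −1.20 with DEHP and −1.65, −1.88, −1.90 and −2.10 with MEHP, against −1.32 to −0.96 in control, so the MEHP arrays were the lowest of the 12. It fell by 0.66 ± 0.15 on the log2 scale (limma adjusted p = 0.0390). The Rdh11 call was lost without any single DEHP array (adjusted p = 0.0787 to 0.120) and without MEHP 2, 3 or 4 (0.0778, 0.136 and 0.242). Among other settings, median centring (limma adjusted p = 0.604), normexp background correction with quantile normalisation (0.0728) and no filter (0.0650) also lost it. So did a 75th percentile over probes above background on all 20 arrays (0.203). Aldh1a2, which makes retinoic acid, read −0.50, −0.10, −0.31 and −0.28 with DEHP and 0.36, 0.78, 1.23 and 0.54 with MEHP. The arrays of Aldh1a2 did not overlap, and its difference of 1.08 ± 0.32 was not called (limma adjusted p = 0.215), although a fit of the DEHP and MEHP arrays alone called it (adjusted p = 0.0184). Of 15 retinoid handling genes measured, Rdh11 was the 1 called.

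Below the threshold the smallest p-values on the lower side included Ccn1, a matrix protein of the immediate early response. Ccn1 read 1.84, 1.24, 0.91 and 1.96 with DEHP and 0.65, 0.69, 0.45 and 0.74 with MEHP, against 0.48 to 0.75 in control. The 4 DEHP arrays stood above the MEHP arrays, which lay at the control level. The difference was −0.87 ± 0.22 (limma adjusted p = 0.0898), and another probe gave −0.91 ± 0.31. Ccn1 was called without DEHP 3 (adjusted p = 0.0172) and with MEHP 1 and 2 as separate samples (0.0354). It was also called with normexp and quantile normalisation (0.0444), a filter on all 20 arrays (0.0312) and array weights (0.0204). The other alternatives did not call Ccn1. Against corn oil it stood at 0.89 with DEHP and 0.02 with MEHP. Junb, another immediate early gene, was at −0.47 ± 0.19 (adjusted p = 0.644). The 16 such genes had a median of −0.05 with 0 called, against 1.16% of all genes. Pcsk2, a hormone-processing protease, was at −1.03 ± 0.25 (adjusted p = 0.0541), but its other probe gave −0.05 ± 0.28. Pcsk2 was well above background on only 2 MEHP arrays, so the size of its difference is limited by background. It was called without DEHP 4 (adjusted p = 0.0348) and without MEHP 1 (0.0185). Clec11a (−0.62 ± 0.18), Dzip1l (−0.54 ± 0.16), Nabp2 (−0.49 ± 0.14), Cacfd1 (−0.39 ± 0.12) and Cdk10 (−0.36 ± 0.11) were not called either, and Clec11a was well above background on 2 MEHP arrays and Dzip1l on 3.

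The remaining lists likewise gave no call, against 1.16% of all genes. The 20 cell cycle genes had a median of −0.07, with Mcm5, a replication helicase subunit, at −0.44 ± 0.40. Mcm5 read −1.27 on MEHP 3 and −1.23 on control 2, against −0.32 to 0.70 on the other DEHP and MEHP arrays. The 14 genes of endoplasmic reticulum stress had a median of −0.09 and the 18 of oxidative stress and xenobiotic response a median of 0.06. Vcam1, an adhesion receptor, was at 0.35 ± 0.27, and the 11 Leydig cell markers other than enzymes had a median of −0.06.

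The genes with the widest spread among MEHP samples show what a mean of the group covers. Gsta2, a glutathione transferase, read −1.88, −2.10, 1.21 and −1.42 on MEHP 1 to 4, −1.02, −0.70, −1.27 and −1.70 with DEHP, and 1.28 to 2.10 in control. Its SD over the 3 MEHP samples was 1.71, against 0.420 over the 4 DEHP samples. Svs5 read 1.14, 1.09, 4.33 and 2.55 with MEHP and 1.20 to 2.54 with DEHP, and Atp4b read −2.70, −2.96, 0.48 and −1.63 with MEHP and −2.05 to −1.04 with DEHP. On these 3 genes MEHP 3 alone stood near the control arrays, which read 4.37 to 4.81 for Svs5 and 0.07 to 0.60 for Atp4b.

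Other genes of wide spread ran the opposite way. Gdnf, the growth factor that Sertoli cells send to germ cells, read 5.19, 5.20, 1.81 and 4.58 with MEHP and 3.0, 4.25, 4.56 and 4.85 with DEHP. Control 2 read 1.88, while the other control arrays read 4.0 to 4.89. Plekhq1 read 2.45, 2.59, −0.34 and 2.08 with MEHP and −0.12 to 1.38 with DEHP, and Msl3l2 read 2.18, 2.43, −0.51 and 1.83 with MEHP and −0.11 to 1.19 with DEHP. In these genes MEHP 3 was again the array apart, with the other MEHP arrays above every DEHP array for Plekhq1 and Msl3l2. Neither gene was called without MEHP 3 (limma adjusted p = 0.210 and 0.218). With control 2 left out as well, an alternative chosen after seeing the data, the same differences were called (limma adjusted p = 0.0308 for Plekhq1 and 0.0446 for Msl3l2). Rab15, a vesicle transport protein, read 7.11, 7.14, 3.69 and 6.67 with MEHP and 5.08 to 7.15 with DEHP.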

How the data were processed

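Foetal testis RNA was hybridised to 1-colour Agilent arrays and read with Feature Extraction 9.5.3.1 per the file headers (9.5 per the submitters' processing notes). The deposited intensity per spot, gProcessedSignal, was already background-subtracted by the authors' scanner software, per the file headers. The authors' deposited table also gives a signed fold (a score with no values between −1 and 1) and a p-value per probe, per the file headers, and its method is not given in the sources used here.

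Each array held 45018 spots, of which 1639 controls were left out. Here log2 intensity minus the 75th percentile of the array was taken, outlier spots were set aside and repeated spots of the 41012 probes were averaged. Probes well above background on all arrays of at least 1 group were kept (28129), with the probe of highest mean for each of 24067 genes. Symbols came from the files and, for 10768 probes, from RefSeq by accession. Near-identical copies can share a probe.

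limma 3.58.1 in R 4.3.3 was fitted to all 5 groups (19 samples, 14 residual and 2.60 prior degrees of freedom) with MEHP arrays 1 and 2 averaged, and Benjamini-Hochberg adjustment ran over all genes. The number of arrays limits the precision, and the median 95% interval was 0.439 wide on either side. Array likeness was taken over probes above background on all 20 arrays. Over those above background on the 8 arrays alone, the set first planned, MEHP 1 and 2 stood at 1.30 times the noise and pairs of DEHP arrays at 2.10 to 2.80. By the planned rule, averaging only below the noise, that value would have kept the 2 arrays separate.

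Named genes were 19 fixed Leydig, cholesterol, cell type and esterase names, the 10 called genes with a symbol, non-overlapping arrays and the largest change each way, and, with few calls lower, the 8 smallest p on that side. To these came the 3 members of each of 21 lists with the largest difference and the 10 genes of widest MEHP spread. Myh6, Myh7, Rpl11-ps10, Hsp90ab1-ps5 and the genes under other observations were chosen after their values were seen. The arrays compared and the lists were chosen with earlier results of these data known. Alternatives covered background correction, normalisation, filters, the samples fitted, array weights and leaving out each array. The fit was tested on simulated data. Some results are not reported here.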

Additional observations from a re-analysis of the deposited data

Results flagged for a closer look

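MEHP differed from DEHP in 280 genes by limma. Among the named ones the difference (MEHP minus DEHP, log2) was 2.73 for Gtse1, 2.71 for Ergic2, 2.53 for Lrch2, 2.24 for Or7g21, 2.09 for Or12e9, 2.01 for Rpl29-ps23 and 1.94 for Dhx16. It was 1.88 for Rpl23a-ps6, 1.85 for Rpl37al2, 1.81 for Hint3, 1.09 for Actc1, 0.60 for Pax2 and −0.66 for Rdh11. For the genes not above background on any DEHP array these fitted values are not bounds, and the bounds stand with the results.

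The 278 genes that rose with MEHP also stood above the DEHP mean on the EHO arrays, with medians of 0.679, 0.646, 0.537 and 0.656, above each control array.

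In 9 of 240 groups of 4 arrays (3.75%) 1 array lay far from the other 3, where chance gives about 1 in 20. On DEHP arrays these were Lrch2 on DEHP 1 (−4.44), Ces2a on DEHP 2 (−2.08), Cpt2 on DEHP 4 (2.25) and Svs5 on DEHP 4 (1.20). On control arrays they were Rdh11 (−1.32), Akr1b7 (−1.67) and Nfe2l2 (2.30) on control 2, Cst9l on control 3 (−1.32) and the median of the gonocyte list on control 4 (−0.28).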

How the results depend on the processing

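The count of 280 called genes was 110 with a 2-fold minimum, 51 with median centring (49 higher, 2 lower), 1706 with array weights (965 higher, 741 lower), 78 without MEHP 3 and 4 (67 higher, 11 lower, 65 of them among the 280) and 118 without MEHP 4 and DEHP 3. In a fit of the DEHP and MEHP arrays alone with MEHP 1 and 2 separate, chosen after seeing the data, it was 481. Leaving out each array gave 164 to 292, with 164 without MEHP 4 and 176 without MEHP 3. The causes were not tested. The other alternatives gave 207 to 370 calls. Among the named genes no called direction reversed in any alternative run, and the direction of the other called genes was not compared. With the replicate number as a block 296 genes were called, 269 higher and 27 lower, of which 195 were among the 280. Correlations of same-numbered DEHP and MEHP arrays, not those of the raw levels, were −0.20, 0.17, −0.16 and 0.22. Pairs of different number ran from −0.42 (DEHP 4 and MEHP 3) to 0.55 (DEHP 1 and MEHP 3). The replicate number was not taken as a pairing in the main fit. Signal over background limits the 14 called genes seen on no DEHP array.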

Other observations

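With MEHP 3 and 4 left out, 11 genes were called lower with MEHP than with DEHP, and Insl3, Hsd3b1 and Cyp11a1 were not alone among them. Hsd3b2, an isoform of the same steroid dehydrogenase, stood at −1.35, Ephx1, a microsomal epoxide hydrolase, at −1.48 and Susd3 at −1.43. Cpa1 and Pla2g1b, both known as enzymes of the exocrine pancreas, stood at −1.36 and −1.07, and Plbd1 at −1.20. MEHP is then 1 sample assumed to vary like the other groups, and these genes were named after their values were seen. With MEHP 1 and 2 left out instead, none of the genes named here was called lower, and Pcsk2 was, at −1.32.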
